A study of Mus musculus with 18 samples.

Results

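Cytosolic ribosomal protein genes were examined in striatum from control mice and from mice with a mutation of Camk4, after saline or cocaine. A gene was included if its probe set carried a single symbol made of Rpl, Rps or Rplp and a digit, leaving out the Rps6k kinases and names with -ps. The probe set also had to lie above log2 4 in at least 3 of the 18 arrays, and each gene stood as its brightest such probe set. This gave 43 genes of the 7583 measured, 23 of the large and 20 of the small ribosomal subunit. Of the 47 fitting symbols on the array, 4 lay below log2 4 in every array, namely Rpl12 (highest value 2.36), Rpl39l (2.41), Rpl3l (2.62) and Rps25 (3.61). Probe sets that carry Rpl12 or Rps25 beside other symbols had means of 13.3 and 13.5, so a low value here is that of the single-symbol probe set. Just above log2 4 were Rpl39, with a mean of 4.62, and Rps27, with 4.95.

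Ribosomal proteins are assembled with ribosomal RNA in the nucleolus into a small subunit, which decodes the messenger RNA, and a large subunit, which joins the amino acids. Their messenger RNAs typically begin with a C followed by a run of C and T, the 5′ terminal oligopyrimidine tract, through which mTOR signalling controls their translation. In neurons this translation is regulated by synaptic activity, and phosphorylation of Rps6 by the S6 kinases is widely used as a marker of active cells.

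Mice were littermates of 10 to 20 weeks, caged singly, handled for 5 days and killed 1 hour after intraperitoneal saline or cocaine (25 mg/kg), which blocks the dopamine transporter. By the sample titles there were 3 control and 3 mutant animals after saline, and 6 control and 6 mutant animals after cocaine, each with 1 array of the striatum including the nucleus accumbens. The labels do not say how the Camk4 mutation was made or in which cells it acts. Animals are numbered in Arabic numerals in 12 arrays (3 per group) and in Roman numerals in 6 arrays, replicates 4 to 6 of both cocaine groups, and the labels do not say what the numbering stands for. Groups rest on the titles, since the description lines named the titled group in 0 of 18 samples and the treatment protocol names cocaine for all. Values are log2 expression values of a probe set after GCRMA, or differences between them.

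Camk4, the targeted gene, averaged 7.65 ± 0.06 and 7.65 ± 0.10 in control mice after saline (SD, n = 3) and cocaine (SD, n = 6), and 7.30 ± 0.16 and 7.27 ± 0.27 in mutant mice, where single arrays reached 7.69. The part of the transcript that its probe set reads was not checked against the mutation. Fos, an immediate early gene, lay between 4.65 and 6.52 in the saline arrays and between 7.39 and 11.7 in the cocaine arrays. Ppp1r1b and Penk, both defining markers of striatal spiny neurons, stood near 13.4 and 13.9 in every group. In mutant cocaine replicate 5 the 3′ actin probe set exceeded the 5′ one by 3.59, against 1.57 to 2.55 in the other 17 arrays. This actin difference grows when RNA is degraded, and results that turn on it are given with and without it.

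The sequence around the annotated transcription start was searched for C and T runs. A RefSeq promoter entry (build GRCm38.p6) was found for 37 of the 43 genes. The windows below run from 10 bases before to 20 bases from the annotated start, 5′ to 3′ on the gene's strand, with the longest run of C and T near the start, if of at least 4 bases, in capitals. They are shown for some of the genes to which the results return, each with such a run. Rpl7l1 is added as an example without one. Other genes named below also had no such run, among them Rpl4, Rpl37, Rplp0 and Rps15.
Rps6, chr4:86857348-86857377, minus strand: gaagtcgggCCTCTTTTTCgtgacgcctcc
Rplp2, chr7:141447641-141447670, plus strand: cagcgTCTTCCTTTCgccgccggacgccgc
Rpl35, chr2:39005112-39005141, minus strand: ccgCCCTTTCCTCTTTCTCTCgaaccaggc
Rpl7a, chr2:26910797-26910826, plus strand: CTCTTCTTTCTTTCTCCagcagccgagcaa
Rpl22l1, chr3:28805498-28805527, plus strand: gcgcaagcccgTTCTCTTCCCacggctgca
Rps26, chr10:128626487-128626516, minus strand: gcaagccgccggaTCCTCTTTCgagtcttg
Rpl7l1, chr17:46782637-46782666, minus strand: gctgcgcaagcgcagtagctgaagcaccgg

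A C at the annotated start followed by 4 bases of C or T was present in 8 of the 37 genes (21.6%), among them Rps6, Rplp2 and Rpl35, against 3.01% of all 27025 genes with an entry. A run of at least 6 bases of C or T that begins with C and lies within 10 bases before to 15 after the start was present in 22 (59.5%), against 21.1% of all genes. The other motifs were searched on both strands of the 300-base promoter window, from 250 bases before to 50 after the start. CCGGAAG, a core recognised by Ets-family factors, was in 18 of 37 promoters (48.6%), against 9.93% of all genes. TGACGTCA, the full cAMP response element bound by CREB, a substrate of the CaMKIV kinase that Camk4 encodes, was in 2 promoters (5.41%), those of Rpl27a and Rps9, against 2.03% of all genes. TATAAA was in 6 (16.2%, against 15.7%) and CACGTG in 4 (10.8%, against 8.09%). These matches describe the letters of the windows and not binding.

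The ribosomal protein transcripts were among the brightest of the array and varied little. The probe sets of 33 of the 43 genes had a mean above log2 12. Rps29, which encodes a zinc-binding protein of the small-subunit head, had the highest value of all 22626 probe sets that are not controls in every array, and Rpl13a ranked 7 to 17. Brightness also depends on the probes, so levels are not compared between genes. The median residual SD of the 43 genes was 0.0665, against 0.159 over all 12674 probe sets tested. Among probe sets above log2 12 the medians were 0.0641 for 33 of these genes and 0.0760 for all 727. The steadiest as read by these probe sets were Rps29 (residual SD 0.0224) and Rps2 (0.0234), though a brighter probe set that carries Rps2 beside other symbols had 0.0971, and the most variable were Rps6 (0.577), Rps9 (0.382), Rpl27a (0.297) and Rps4l (0.275). In a bulk sample, fewer cells of a type and less RNA per cell cannot be told apart, and GCRMA removes any change common to all transcripts.

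The first comparison asks whether cocaine changed these transcripts within 1 hour. None of the 43 genes passed an adjusted p of 0.05 in limma in control mice, in mutant mice or when the genotypes were averaged, where the same threshold called 0.11%, 0.0473% and 0.221% of all probe sets. The counts at an unadjusted p under 0.05 were 1, 5 and 2 of 43 (2.33%, 11.6% and 4.65%, against 2.6%, 6.95% and 5.09% of all probe sets), and an ordinary linear model also called 0 in each. The median difference was -0.011 in control mice and 0.028 in mutant mice, and 0.0075 when averaged, against 0.0087, 0.0068 and 0.0078 over all genes. The median in control mice changed sign, to 0.0089, when each array was centred on its own median. Because saline was given to Arabic-numbered animals only, the averaged difference rests on those 12 arrays. Without mutant cocaine replicate 5 limma called 0 of the 43 genes in the same 3 contrasts (0.221%, 0.205% and 2.86% of all probe sets). With the Arabic-numbered arrays alone it also called 0 (0.339%, 0.0237% and 3.39% of all probe sets).

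Rps29 had the smallest p in the averaged contrast. It stood at 14.93, 14.95 and 14.91 in control and at 14.92, 14.95 and 14.91 in mutant saline arrays. After cocaine the Arabic-numbered arrays read 14.96, 14.94 and 14.98 in control and 14.99, 14.97 and 14.97 in mutant mice. All but 1 of these 6 cocaine arrays lay above every saline array, yet the difference was only 0.04 ± 0.02 (log2, SE) and its adjusted p in limma was 0.859. Quantile normalisation turns it to 0, because the brightest probe set of each array is then given the same value.

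Rps20, which encodes a protein of the small-subunit head, had the smallest p in mutant mice. Its saline values were 13.84, 13.89 and 13.76 in control and 13.78, 13.66 and 13.75 in mutant mice. The Arabic-numbered cocaine values were 13.87, 13.77 and 13.74 in control and 13.86, 13.87 and 13.90 in mutant mice. The Roman-numbered ones were 13.69, 13.79 and 13.84 in control and 13.75, 13.91 and 13.79 in mutant mice. In mutant mice the Arabic-numbered cocaine values all lay above saline, and the Roman-numbered ones overlapped with it. The cocaine difference in mutant mice was 0.14 ± 0.05 with an adjusted p of 0.66 in limma, and the genotype by cocaine interaction was 0.16 ± 0.06 with an adjusted p of 0.992.

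Other genes of small p in mutant mice were Rps26, which contacts the messenger RNA at the exit channel (0.11 ± 0.04), Rpl37 (0.23 ± 0.10) and Rpl22l1, a paralogue of Rpl22 (0.14 ± 0.06), all with an adjusted p of 0.66 in limma. In control mice they were Rps9, a protein near the messenger RNA entry channel (-0.62 ± 0.26), Rpl7a (-0.07 ± 0.04), Rpl8 (-0.05 ± 0.03) and Rpl27a (-0.27 ± 0.21), all with an adjusted p of 1. Rpl4, which lines the exit tunnel of the large subunit, differed by -0.08 ± 0.04 in the averaged contrast (adjusted p = 0.859 in limma). None of these differences passed the test.

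**Figure D1:**
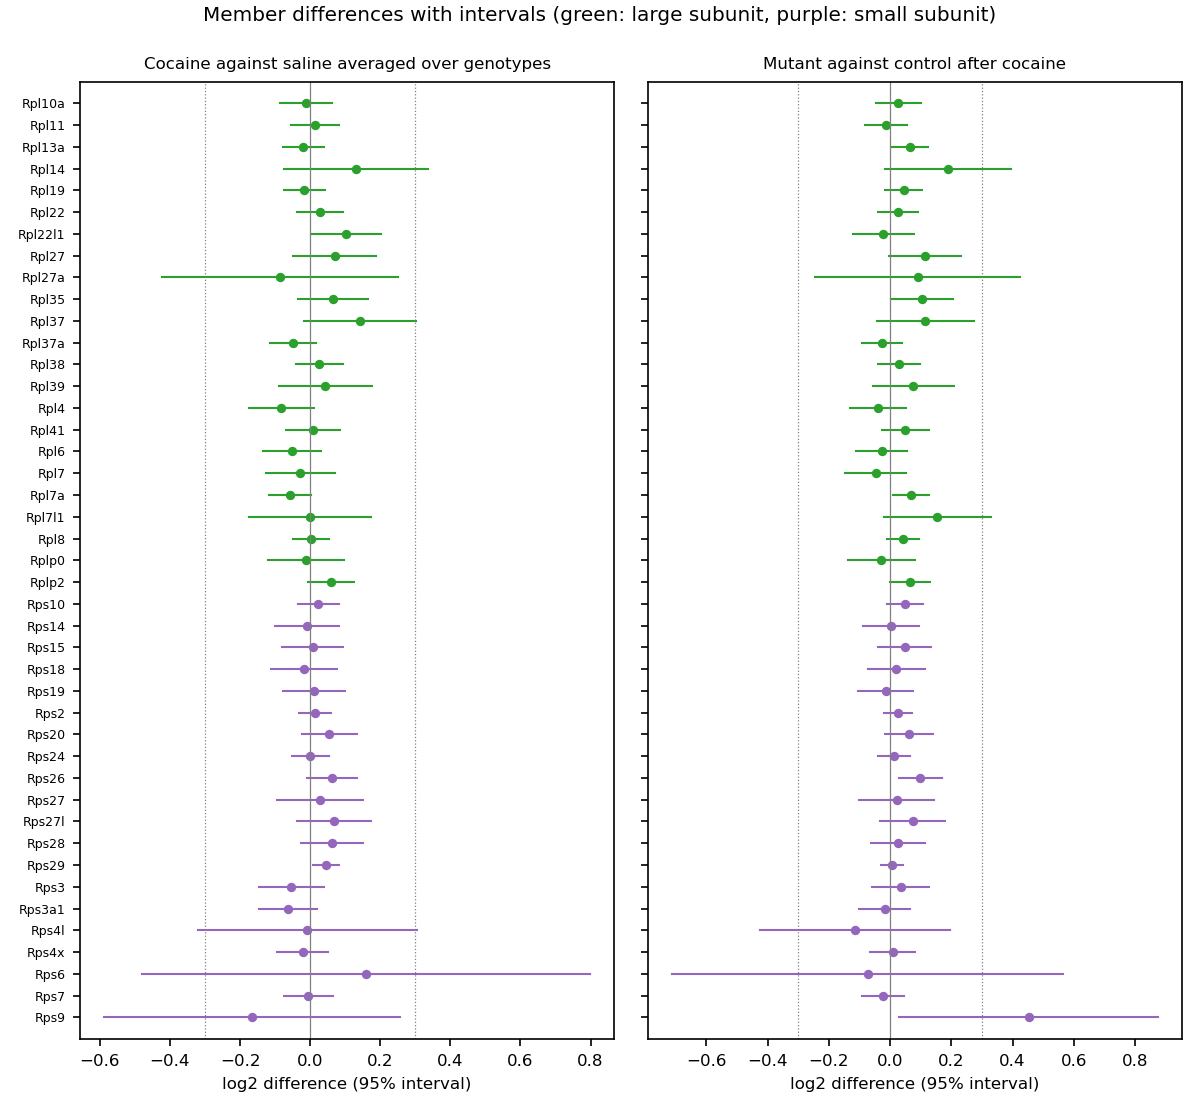
Fitted log2 differences of the 43 genes (points) with 95% intervals (bars) for cocaine against saline averaged over genotypes (left) and mutant against control after cocaine (right), limma on 18 arrays; dotted lines mark differences of 0.3. Most intervals are short and span 0, while those of Rps6, Rps9, Rps4l and Rpl27a are the widest, with residual SDs of 0.577, 0.382, 0.275 and 0.297.

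The precision was enough to bound most of these differences. In all 7 contrasts fitted, 34 of the 43 genes had a 95% interval that lay inside 0.3 on either side of 0, with bounds from -0.25 to 0.30, which correspond to ratios from 0.843 to 1.23. The other 9 left that range in at least 1 contrast. They were Rps6, Rps9, Rps4l and Rpl27a in all 7, Rpl14 in 6, Rpl7l1 in 5, Rpl37 in 3, Rpl27 in 2 and Rpl39 in 1. These intervals are those of the probe set that stood for each gene. The probe set of Rps27, among the 34, had a mean of only 4.95. GCRMA compresses dim values, so its short interval need not bound the transcript. A dimmer probe set of Rpl13a, with a mean of 10.7, left the range. It differed by 0.31 for cocaine in mutant mice and by 0.37 for the interaction (adjusted p = 0.66 and 0.992 in limma). The width of 0.3 was chosen after the values were seen.

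Mutant and control mice were then compared. After saline 0 of the 43 genes passed in limma (0% of all probe sets were called), with 0 at an unadjusted p under 0.05 (2.76% of all probe sets) and 0 in an ordinary linear model. After cocaine 0 passed (0% of all), with 5 at an unadjusted p under 0.05 (11.6%, the same share as over all probe sets), and for the interaction 0 passed (0% of all), with 3 (6.98%, against 2.68%). The ordinary linear model called 0 in both. The median difference was 0.00030 after saline, 0.027 after cocaine and 0.027 for the interaction, against 0.029, 0.026 and -0.0067 over all genes. Without mutant cocaine replicate 5 the median after cocaine was 0.024, against 0.0067 over all genes and -0.00018 over all probe sets. For the interaction it was then 0.023, against -0.022 over all genes. These gaps were not tested. By the differences fitted to all arrays 31 of 43 genes (72.1%) were higher in mutant mice after cocaine, against 58.5% of all genes and 52.7% of all probe sets. After saline 22 (51.2%) were, against 61% of all genes and 55% of all probe sets.

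Rps26 had the smallest p after cocaine. Its Arabic-numbered cocaine values were 12.68, 12.71 and 12.72 in control and 12.79, 12.84 and 12.83 in mutant mice. The Roman-numbered values were 12.66, 12.59 and 12.69 in control and 12.72, 12.79 and 12.66 in mutant mice. After saline they were 12.64, 12.77 and 12.70 in control and 12.60, 12.76 and 12.73 in mutant mice. The genotypes did not overlap in the Arabic-numbered cocaine arrays and overlapped in the other sets, and the difference after cocaine was 0.10 ± 0.03 with an adjusted p of 0.427 in limma.

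Rpl7a, a large-subunit protein, had the next smallest p. In the Arabic-numbered cocaine arrays it read 13.00, 13.01 and 13.00 in control and 13.09, 13.12 and 13.11 in mutant mice, without overlap. The Roman-numbered values were 13.11, 13.01 and 13.09 in control and 13.10, 13.15 and 13.06 in mutant mice, which overlap. After saline they were 13.08, 13.07 and 13.14 in control and 13.11, 13.20 and 13.08 in mutant mice. The 3 Arabic-numbered control cocaine arrays thus lay below all saline arrays. The genotype difference after cocaine was 0.07 ± 0.03 with an adjusted p of 0.427 in limma. The remaining genes of small p were Rpl13a (0.06 ± 0.03), Rps9 (0.45 ± 0.20) and Rpl35 (0.10 ± 0.05), at the same adjusted p. Without mutant cocaine replicate 5, Rpl35 differed by 0.05 ± 0.03 (adjusted p = 0.696 in limma).

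The genotype difference after cocaine was not alike in the sets of arrays. In the Arabic-numbered arrays, 39 of 43 genes (90.7%) were higher in mutant mice, against 50% of all probe sets and 50.5% of those above log2 12, and the median difference was 0.069. All 3 mutant arrays exceeded all 3 control arrays in 11 genes (25.6%), against 6.08% of all probe sets and 12% of those above log2 12, and in 0 genes were they all lower (6.03% of all). These 11 were Rpl7a, Rpl19, Rpl22, Rpl35 and Rplp2 of the large subunit, and Rps3a1, Rps10, Rps15, Rps18, Rps26 and Rps27l of the small one. In the Roman-numbered arrays 23 of 43 (53.5%) were higher, with a median of 0.012, against 54.9% and 0.023 over all probe sets. There 2 genes did not overlap upwards (7.91% of all probe sets did), Rpl7l1 and Rps2, and 5 did not overlap downwards (11.6%, against 7.15%), Rpl7, Rplp0, Rps3a1, Rps7 and Rps18. After saline 22 of 43 (51.2%) were higher, against 55% of all probe sets, 1 without overlap (Rpl13a, 7.19% of all) and 2 lower without overlap (Rpl8 and Rpl22l1, 4.65% against 4.56%).

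**Figure D2:**
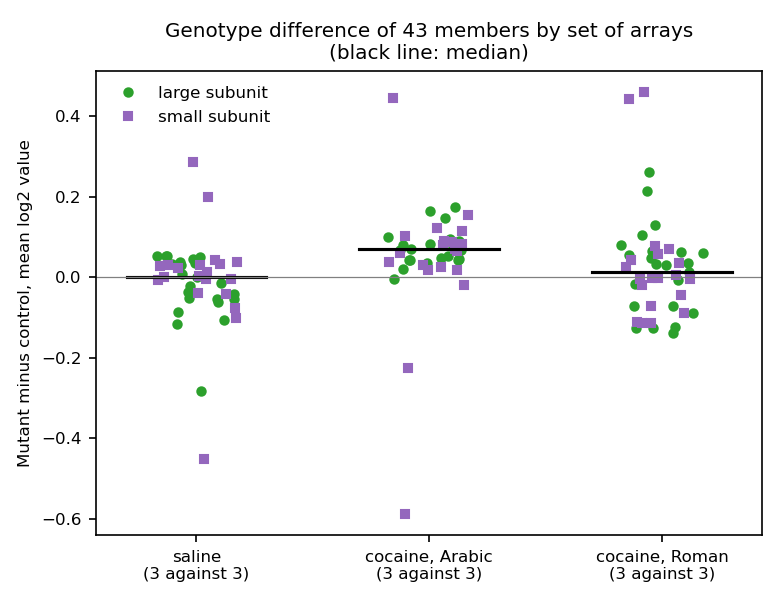
Mutant minus control difference of mean log2 values for each of the 43 genes in 3 sets of arrays, 3 mutant against 3 control arrays each; circles are large-subunit and squares small-subunit genes, and black lines are medians. The median lies at 0.069 in the Arabic-numbered cocaine arrays, against 0.012 in the Roman-numbered ones and 0.00030 after saline.

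The difference between the sets did not pass a test. In limma, the genotype difference after cocaine differed between the numbering series in 0 of 12674 probe sets (0%), of which 562 had an unadjusted p under 0.05. Among the 43 genes 0 passed, 6 had an unadjusted p under 0.05 and the smallest adjusted p was 0.848. With the Arabic-numbered arrays alone, 0 of the 43 genes passed in limma after cocaine (0% of all probe sets). An unadjusted p under 0.05 was seen in 10 (23.3%). The share of all probe sets at that cut was not taken in this fit, so the 10 cannot be read as an excess. The genes are read from the same 6 arrays and are not independent of each other, so their count carries no p.

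The count in the Arabic-numbered cocaine arrays changed little with scaling or probe set. It was 39 of 43 with each array centred on its median and 38 of 43 after quantile normalisation. It was 38 of 43 with the mean over all probe sets of a gene, and 34 of 36 among the other probe sets of these genes. Leaving out any 1 of the 6 arrays gave 37 to 40 of 43 and medians from 0.058 to 0.081. In the Roman-numbered arrays centring gave 34 of 43 in place of 23, with a median of 0.089, and without replicate 5 of the mutant mice the count was 19 with a median of -0.010. After saline centring gave 28 of 43. Centring shifts all probe sets of an array by the same amount. The share of all probe sets above 0 after centring was not taken, so 34 and 28 of 43 cannot be read as an excess.

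By array, the median over the 43 genes of the deviation from each gene's own mean was 0.001, -0.039 and -0.043 in Arabic-numbered control mice given cocaine and 0.015, 0.053 and 0.032 in their mutant counterparts. These do not overlap, although the lowest mutant and the highest control array are close. The saline arrays lay at -0.015, 0.007 and -0.006 in control and at -0.013, 0.003 and -0.007 in mutant mice, and the highest of these control cocaine arrays fell within that range. The Roman-numbered arrays lay at -0.004, -0.032 and 0.026 in control and at -0.020, 0.041 and -0.020 in mutant mice, where the highest mutant value is replicate 5. Within the Arabic-numbered arrays the cocaine minus saline median was -0.029 in control mice (14 of 43 above 0) and 0.045 in mutant mice (35 of 43 above 0).

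**Figure D3:**
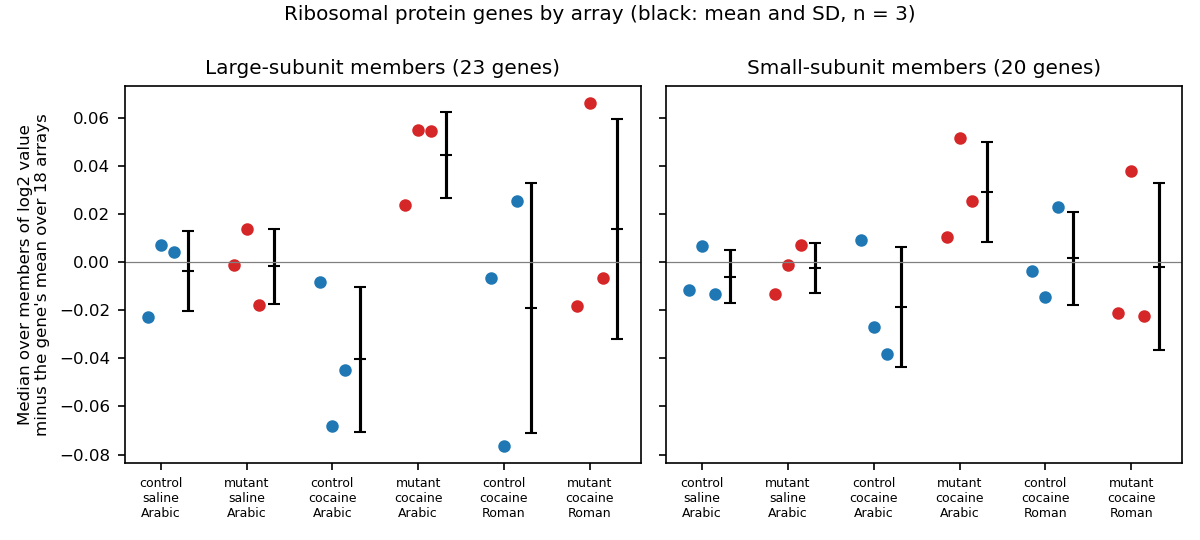
Median over large-subunit genes (left, 23 genes) and small-subunit genes (right, 20 genes) of each array's log2 deviation from the gene's mean over 18 arrays, by group and numbering series; points are arrays (blue control, red mutant) and black bars the mean and SD, n = 3. All 3 Arabic-numbered mutant cocaine arrays lie above the 3 control ones in both panels, with member medians of 0.015 to 0.053 against -0.043 to 0.001.

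Measures of RNA quality and of other transcripts in the same 6 arrays were as follows. The actin difference averaged 2.43 ± 0.19 in the control and 2.33 ± 0.16 in the mutant arrays (SD, n = 3 each), less apart than its spread. Of the genes of mitochondrial ribosomal proteins, which are encoded in the nucleus and serve a separate ribosome, 61 of 74 were higher in mutant mice, with a median of 0.078. Translation initiation factors were higher in 21 of 33, ribosome biogenesis genes in 34 of 56, elongation factors in 4 of 8 and genes of the mTOR pathway in 7 of 14. Markers of spiny neurons were higher in 3 of 9, with a mean level of 11.9 to 12.1 in control and 11.9 to 12.0 in mutant arrays. Those of oligodendrocytes were higher in 6 of 9, astrocytes in 6 of 12, microglia in 4 of 11 and endothelium in 1 of 8. The part of these in the ribosomal protein values was not tested.

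The median differences of large- and small-subunit genes were set side by side in each contrast. They were -0.012 and 0.0087 for cocaine in control mice, 0.037 and 0.025 for cocaine in mutant mice, and 0.0025 and 0.0090 averaged. For genotype they were -0.015 and 0.0069 after saline, 0.044 and 0.021 after cocaine, and 0.034 and 0.011 for the interaction. Between the numbering series they were -0.017 and -0.016. The gap between the subunits ran from -0.022 to 0.023 over the 7 contrasts, against an SD of 0.018 between arrays of a group, and the subunits were not tested against each other.

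The numbering series gave the smallest adjusted p-values. With all arrays, 0 of the 43 genes differed between Roman- and Arabic-numbered arrays in limma, where 6.16% of all probe sets were called. At an unadjusted p under 0.05 there were 5 (11.6%, against 24.4%), and an ordinary linear model called 0. The median difference was -0.017, against -0.053 over all genes. Without mutant cocaine replicate 5, 6 of 43 were called (14%), against 29.8% of all probe sets. In both fits the share called was below that over all probe sets, and this gap was not tested.

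Rplp2 encodes an acidic protein of the large-subunit stalk that recruits elongation factors. The Arabic-numbered cocaine values were 14.09, 14.21 and 14.20 in control and 14.24, 14.23 and 14.24 in mutant mice. The Roman-numbered ones were 14.12, 14.02 and 14.06 in control and 14.12, 14.20 and 14.06 in mutant mice. The series overlap, with the Roman-numbered arrays on the low side except for replicate 5, and the saline arrays ranged from 14.08 to 14.24. The difference was -0.10 ± 0.03 with an adjusted p of 0.0601 in limma, and -0.12 with an adjusted p of 0.00752 without replicate 5. Rplp0, the stalk's base, differed by 0.04 ± 0.05 between the series and by -0.03 ± 0.05 between genotypes after cocaine.

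Rps7, a small-subunit protein, had the next smallest p and a difference of the opposite sign. Its Arabic-numbered cocaine values were 13.87, 13.80 and 13.85 in control and 13.86, 13.93 and 13.91 in mutant mice. The Roman-numbered ones were 14.06, 13.99 and 14.04 in control and 13.89, 13.95 and 13.92 in mutant mice. In control mice the series did not overlap, and in mutant mice they did. The difference was 0.10 ± 0.03 with an adjusted p of 0.0678 in limma, and 0.11 with 0.0257 without replicate 5.

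Rpl35, a protein at the mouth of the exit tunnel, differed more between the series without replicate 5 than with it. The Arabic-numbered cocaine values were 13.67, 13.74 and 13.76 in control and 13.80 in all 3 mutant arrays. The Roman-numbered ones were 13.59, 13.52 and 13.64 in control and 13.61, 13.93 and 13.60 in mutant mice. All Roman-numbered arrays except replicate 5, at 13.93, lay below every Arabic-numbered cocaine array. The difference was -0.11 ± 0.05 with an adjusted p of 0.164 in limma, and -0.16 with 0.001 without that array.

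The other genes called without replicate 5 were Rpl38 (-0.09, adjusted p = 0.0301 in limma), Rps15 (-0.11, 0.0473) and Rpl22l1 (0.13, 0.0408). Rps19, a gene mutated in Diamond-Blackfan anaemia, differed by -0.10 ± 0.04 with all arrays (adjusted p = 0.155 in limma), and Rps26 by -0.08 ± 0.03 (0.173). Of 9 spiny neuron markers, limma with all arrays called 2 between the series, where 6.16% of all probe sets were called. Bcl11b (-0.33, adjusted p = 0.00786) and Drd2 (-0.28, adjusted p = 0.0271) were lower in Roman-numbered arrays, and the other markers were not called. The actin difference was 1.73 ± 0.17 in the Roman-numbered control cocaine arrays (SD, n = 3), against 2.43 ± 0.19 in the Arabic-numbered ones, and 1.68, 3.59 and 1.63 in the Roman-numbered mutant ones. Their part in the result was not tested.

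**Figure D4:**
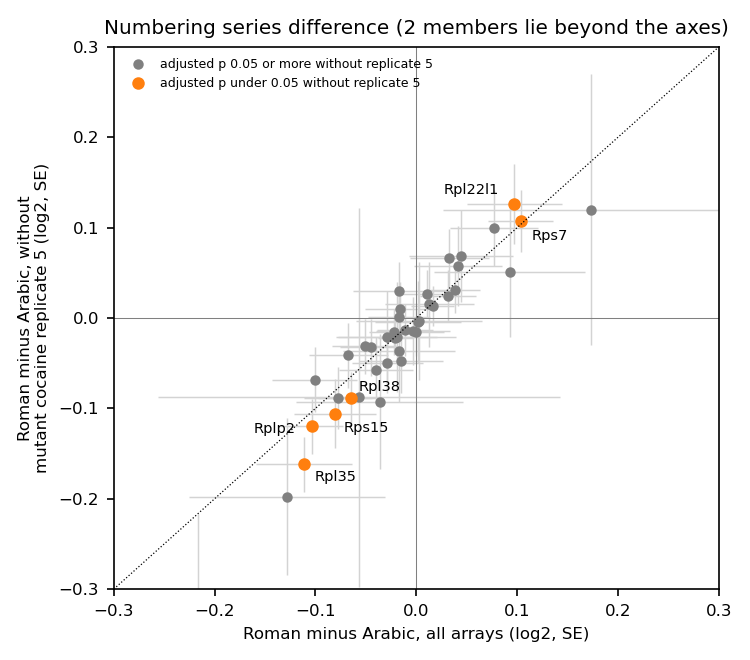
Roman- minus Arabic-numbered log2 difference of each gene with all 18 arrays (x) and without mutant cocaine replicate 5 (y); bars are SE, the dotted line marks equal values, and 2 genes lie beyond the axes. The 6 genes in orange passed an adjusted p of 0.05 in limma without replicate 5, from -0.16 (Rpl35) to 0.13 (Rpl22l1).

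Paralogues are given beside their parent genes, beginning with Rpl22l1. Its saline values were 12.73, 12.73 and 12.69 in control and 12.63, 12.55 and 12.67 in mutant mice. The Arabic-numbered cocaine values were 12.77, 12.64 and 12.77 in control and 12.71, 12.82 and 12.89 in mutant mice. The Roman-numbered ones were 12.97, 12.85 and 12.96 in control and 12.90, 12.72 and 12.79 in mutant mice. The genotypes did not overlap after saline, where mutant mice were lower by a difference of -0.11 ± 0.07 (adjusted p = 1 in limma), and overlapped in the Arabic-numbered cocaine arrays. Rpl22 itself differed by -0.02 ± 0.04 after saline and by 0.05 ± 0.04 for cocaine in mutant mice. A dimmer probe set of Rpl22 gave the opposite signs, 0.17 after saline and -0.06 for cocaine in mutant mice.

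Rpl7l1, a paralogue of Rpl7, differed by 0.15 ± 0.08 between genotypes after cocaine (adjusted p = 0.446 in limma), against -0.05 ± 0.05 for Rpl7. A dimmer probe set of Rpl7l1, with a mean of 7.23, gave the opposite sign, -0.17 (adjusted p = 0.51 in limma). Rps27l and Rps27 differed by 0.07 ± 0.05 and 0.02 ± 0.06. Rps4l and Rps4x differed by -0.11 ± 0.15 and 0.01 ± 0.03. Without mutant cocaine replicate 5, Rpl7l1 differed by 0.10 ± 0.07 (adjusted p = 0.772 in limma) and Rpl7 by -0.00077 ± 0.03. Rps27l and Rps27 then differed by 0.08 ± 0.05 and 0.02 ± 0.06, and Rps4l and Rps4x by -0.17 ± 0.15 and 0.03 ± 0.03. No difference within a pair was tested.

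Several of the most variable genes were read otherwise by a further probe set. The brightest single-symbol probe set of Rps9 ranged from 11.7 to 12.9, with a residual SD of 0.382, while its other tested probe set ranged from 11.8 to 12.2, with an SD of 0.0915. In control saline arrays the brightest read 12.70, 12.91 and 12.02 and the other 11.96, 11.95 and 12.03. The cocaine differences of both in control mice lay 0.61 apart, and their interactions 0.93 apart. The largest interaction in the set, 0.90 ± 0.35 for Rps9 (adjusted p = 0.992 in limma), stood beside -0.03 in the other probe set.

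Rps6, the S6 kinase substrate, was read by a dim single-symbol probe set that ranged from 6.50 to 8.56. A probe set that carries Rps6 beside other symbols ranged from 14.2 to 14.4, with a residual SD of 0.0548. That of Rpl27a ranged from 13.8 to 14.0, against 7.43 to 8.47 for the single-symbol one. For Rpl14 and Rpl39 the means were 13.0 and 14.2, against 6.59 and 4.62. For Rps2 the mean was 13.5, against 12.9, and here the brighter probe set had the larger residual SD, 0.0971 against 0.0234. Over the 19 genes with more than 1 tested probe set, the median gap between the differences of 1 gene's probe sets was 0.045 to 0.081 in the 7 contrasts, and their signs differed in 7 to 12 genes.

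**Figure D5:**
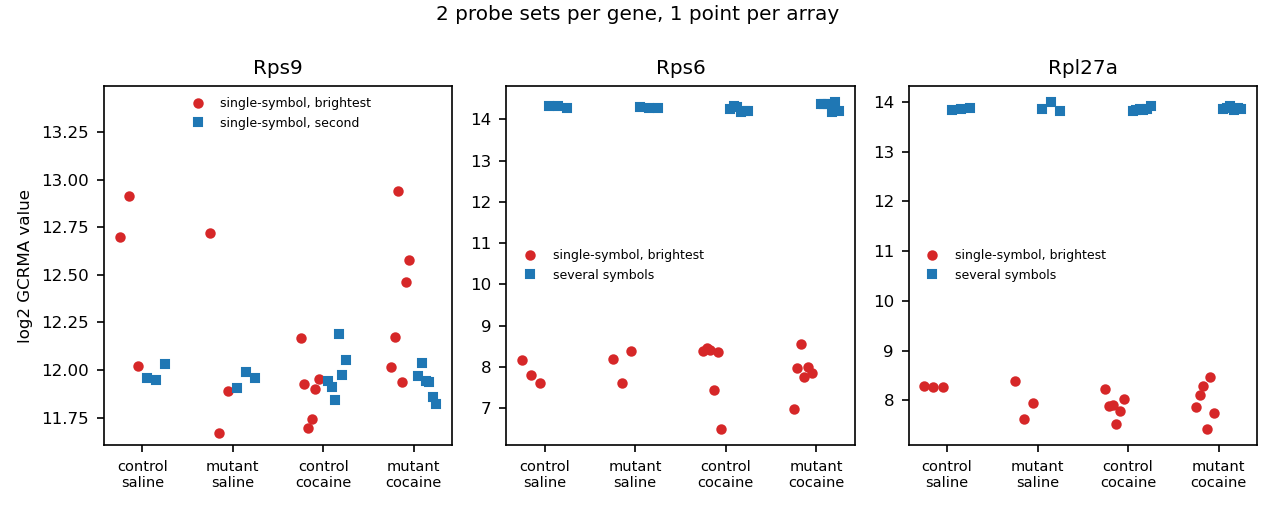
Log2 values of 2 probe sets each for Rps9, Rps6 and Rpl27a, 1 point per array, by group. The single-symbol probe sets (red circles) spread over 11.7 to 12.9, 6.50 to 8.56 and 7.43 to 8.47, and the other ones (blue squares) over 11.8 to 12.2, 14.2 to 14.4 and 13.8 to 14.0.

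Many ribosomal protein genes have processed pseudogenes of near-identical sequence, and 102 tested probe sets carried a fitting symbol beside others. Adding those in which the other symbols were pseudogene or predicted names brought the set to 70 genes, with 27 further genes such as Rpl3, Rplp1 and Rpl12. In these probe sets signal from a gene and from its pseudogenes cannot be told apart. Of the 70 genes, 0 passed in limma in the treatment, genotype and interaction contrasts (0 to 0.221% of all probe sets). Rps16 differed between the numbering series (-0.10, adjusted p = 0.0461 in limma), and 11 genes (15.7%, against 29.8%) did without replicate 5. In the Arabic-numbered cocaine arrays 66 of 70 were higher in mutant mice and 26 of the 27 further genes were. Among the replaced genes, Rps6 differed there by -0.59 in its single-symbol probe set. The several-symbol one averaged 14.38 in mutant and 14.30 in control arrays.

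Rpsa and Fau encode ribosomal proteins under other names. Between genotypes after cocaine they differed by 0.10 ± 0.05 and 0.03 ± 0.04 (adjusted p = 0.434 and 0.649 in limma). Genes that act with the ribosome were called in 0 cases in the treatment, genotype and interaction contrasts, over 33 initiation factors, 8 elongation factors, 56 biogenesis genes, 14 genes of the mTOR pathway and 74 mitochondrial ribosomal proteins. Between the numbering series, where 6.16% of all probe sets were called, limma called 1 of 33 initiation factors (3.03%), Eif1a (0.21). It called 2 of 56 biogenesis genes (3.57%), namely Ubtf (-0.33), which activates ribosomal RNA transcription, and Pno1 (0.40), a small-subunit assembly factor. Of the mTOR pathway it called 1 of 14 (7.14%), Akt1 (-0.23), a kinase upstream of mTOR. Of the mitochondrial ribosome it called 3 of 74 (4.05%), Mrpl2 (-0.26), Mrpl4 (-0.21) and Mrpl28 (-0.23), and of the elongation factors 0 of 8.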

How the data were processed

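Total RNA of 18 striatum samples was read on Affymetrix arrays. The deposited table holds log2 values from GCRMA, run by the authors in R 2.4.1 per the submitters' processing notes, with no settings stated in the labels. GCRMA equalises the distributions of the arrays and compresses dim values. No counting depth applies, and the number of arrays limits the precision. Gene symbols came from the platform annotation. Of 12674 probe sets above log2 4 in at least 3 arrays (64 controls left out), 11749 carried 1 symbol, 406 several and 519 none.

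Limma 3.58.1 in R 4.3.3 was fitted to all of them with the 4 groups and the numbering series as terms, a variance trend and Benjamini-Hochberg adjustment over all probe sets (threshold 0.05, two-sided), and was checked on simulated data. The ordinary linear model used the same terms without moderation. The genes, lists and alternatives were chosen with earlier results of these data known. Genes named are the 5 of smallest p per contrast, those called, stalk proteins, paralogues with their parents, textbook examples, and from each list those called. Genes printed for not overlapping, for wide intervals or for disagreeing probe sets, and Rpsa and Fau beside them, were chosen after their values were seen, as was the rule for probe sets with several symbols. Replicate numbers of the titles did not pair the samples, since 6 of 21 same-numbered pairs had a residual correlation above 0.1. Promoters were read with Python 3.11.15 and pandas 2.3.3. Alternatives covered terms, blocks, filters, scaling, probe sets, array weights, tools and each replicate left out.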

Additional observations from a re-analysis of the deposited data

Results flagged for a closer look

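In mutant cocaine replicate 5, Rpl19, Rpl7 and Rps28 lay far from the other 5 arrays of their group. Rpl19 was lowest at 13.1033, with the nearest array at 13.1771, and Rpl7 was lowest at 12.765, with the nearest at 12.9975. Rps28 was highest at 14.2968, with the nearest at 14.1555. The gap of each, as a share of the group's range, exceeded Dixon's value of 0.625 for 6 samples. In all, 92 groups of 6 arrays were tested over the 43 genes and their medians, and chance alone passes about 1 in 20 groups. All 3 fall in the array with the actin 3′ minus 5′ difference of 3.59. Its median absolute deviation from its own set was 0.114 over the 43 genes and 0.282 over all probe sets. Their cause was not tested.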

How the results depend on the processing

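In the treatment, genotype and interaction contrasts 0 of the 43 genes were called under every alternative that gave a value, the replicate block included, and the median difference under the replicate block was 0.0075 for cocaine averaged over genotypes, the same as without it (the block leaves no series contrast). As the replicate numbers did not pair the samples, the block is no sign of a weaker effect. Between the numbering series the count of 0 became 1 with an actin term, 1 of 70 with several-symbol probe sets, 6 with array weights, 1 with each array centred and 2 after quantile normalisation, and leaving out 1 replicate gave 0 to 6 (Rplp2 alone without control cocaine replicate 1, and 6 without mutant cocaine replicate 5). Centring each array moved the median difference to 0.0292 for cocaine averaged over genotypes, 0.00886 in control mice, 0.0514 in mutant mice, 0.0673 for genotype after cocaine, 0.0361 after saline and -0.0431 between the series. Centring shifts all probe sets of an array by the same amount, and the medians over all genes after it were not taken. The Arabic-numbered arrays alone gave 0.0690 for genotype after cocaine and 0.0670 for the interaction. Leaving out 1 replicate gave medians from -0.0197 to 0.0102 for cocaine in control mice and from -0.0111 to 0.0204 for genotype after saline. The large minus small subunit gap moved to -0.0270 for cocaine averaged over genotypes and -0.0143 in mutant mice without the series term, and to 0.00159 for genotype after cocaine with the Arabic-numbered arrays alone. Without 1 replicate it ran from -0.0350 to 0.0110 for cocaine in control mice and from 0.00114 to 0.0310 in mutant mice. The causes were not tested.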
